A study of Mus musculus with 14 samples.

Results

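Open chromatin was compared between granulocyte-biased multipotent progenitors (MPP3) and long-term haematopoietic stem cells (LT-HSC) in mice that carried the Dnmt3a mutation. The comparison holds 6 of the 14 ATAC-seq libraries of the series, 3 of MPP3 and 3 of LT-HSC, and all 14 enter the fit. It covers 25058 of 705361 deposited regions, those on chromosomes 1 to 19 and X with a mean signal of at least 100 over the 14 libraries. ATAC-seq marks open chromatin by inserting sequencing adapters into accessible DNA with a transposase, and the signal of a region is the scaled number of reads that fall in it.

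Every group shared 1 protocol. In each case 1000000 whole bone marrow cells of C57BL/6J donors went into lethally irradiated CD45.1 recipients, which were given poly(I:C) after 4 weeks, tamoxifen 4 weeks later, and were harvested after a further 4 weeks for sorting of both cell types. Poly(I:C), an inducer of interferon, and tamoxifen, which activates tamoxifen-dependent recombinases, were therefore given to the controls too. Carriers were labelled Dnmt3a-flR878H/+ (2 MPP3 libraries, A and B, and 1 LT-HSC library, B) or Dnmt3a-flR878H/+;Npm1-frt/+ (1 MPP3 library, B, and 2 LT-HSC libraries, A and B), here called Dnmt3a and Dnmt3a;Npm1. The 8 non-carrier libraries were WT, labelled as carrying Mx-Cre alone, or Npm1-frt/+, with 2 libraries for each cell type and genotype. Mx-Cre is induced by interferon and is active in many blood and non-blood cells, the recipients keep their own non-haematopoietic cells, and the labels of the mutant groups do not name a recombinase. The title of the MPP3 Dnmt3a;Npm1 library gives no cell type, which its other labels give as MPP3. Nothing says whether libraries of a group came from separate mice, and p-values therefore reflect only how far these libraries differ, possibly for technical reasons.

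LT-HSC sit at the top of blood formation and are mostly quiescent, while MPP3 are short-lived progenitors that feed mainly the granulocyte and macrophage lineages. On the way to granulocytes, C/EBP and PU.1 factors open the genes of granule proteins such as myeloperoxidase, and genes that mark the stem cell state are closed. Dnmt3a is a de novo DNA methyltransferase, and its hotspot mutation is a common founder of clonal haematopoiesis. Npm1 encodes a nucleolar chaperone whose cytoplasmic mutant form often follows it in myeloid leukaemia. In a bulk library, a larger share of cells with an open site and a wider opening in each cell cannot be told apart.

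The promoters of 6 genes whose regions separated all carrier MPP3 from all carrier LT-HSC libraries are shown here as examples. The genes of a granule protein, a neutrophil iron carrier and a sorting marker had higher signal in MPP3. A homeobox gene and the genes of a redox enzyme and a stem cell factor had lower signal in MPP3. Each line gives the 250 bases before the start of the gene in RefSeq (build GRCm38.p6), 5′ to 3′ on the strand of the gene. Capitals mark exact matches, on either strand, to 5 motifs: AGATAA for GATA factors, GAGGAAGT for PU.1 and other ETS factors, TTGCNNAA for C/EBP, TGTGGT for RUNX and TGANTCA for AP-1.
Mpo (chr11:87793534-87793783, plus strand): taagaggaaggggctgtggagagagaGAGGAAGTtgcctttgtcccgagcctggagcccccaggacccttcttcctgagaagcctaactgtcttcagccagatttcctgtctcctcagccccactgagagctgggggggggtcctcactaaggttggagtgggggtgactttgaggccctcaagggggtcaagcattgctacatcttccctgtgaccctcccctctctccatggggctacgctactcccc
Lcn2 (chr2:32387740-32387989, minus strand): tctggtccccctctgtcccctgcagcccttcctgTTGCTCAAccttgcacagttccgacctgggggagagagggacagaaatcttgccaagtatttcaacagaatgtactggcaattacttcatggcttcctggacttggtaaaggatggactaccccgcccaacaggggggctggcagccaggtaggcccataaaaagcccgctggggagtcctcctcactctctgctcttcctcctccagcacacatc
Cd48 (chr1:171681742-171681991, plus strand): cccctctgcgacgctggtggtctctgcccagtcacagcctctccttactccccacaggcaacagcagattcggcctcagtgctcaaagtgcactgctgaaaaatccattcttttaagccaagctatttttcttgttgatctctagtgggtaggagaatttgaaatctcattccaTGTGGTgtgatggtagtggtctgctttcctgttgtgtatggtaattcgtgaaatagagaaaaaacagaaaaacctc
Nkx2-3 (chr19:43612075-43612324, plus strand): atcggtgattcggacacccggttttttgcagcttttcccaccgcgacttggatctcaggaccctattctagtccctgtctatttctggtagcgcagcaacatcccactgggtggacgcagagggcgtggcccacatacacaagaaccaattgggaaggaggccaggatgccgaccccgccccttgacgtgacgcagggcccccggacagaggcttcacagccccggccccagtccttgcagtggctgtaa
Srxn1 (chr2:152105274-152105523, plus strand): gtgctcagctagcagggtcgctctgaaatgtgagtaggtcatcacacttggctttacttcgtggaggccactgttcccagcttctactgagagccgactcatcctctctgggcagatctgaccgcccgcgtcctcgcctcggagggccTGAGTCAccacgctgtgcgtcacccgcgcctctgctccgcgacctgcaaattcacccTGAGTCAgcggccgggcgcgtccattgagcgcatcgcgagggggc
Erg (chr16:95459349-95459598, minus strand): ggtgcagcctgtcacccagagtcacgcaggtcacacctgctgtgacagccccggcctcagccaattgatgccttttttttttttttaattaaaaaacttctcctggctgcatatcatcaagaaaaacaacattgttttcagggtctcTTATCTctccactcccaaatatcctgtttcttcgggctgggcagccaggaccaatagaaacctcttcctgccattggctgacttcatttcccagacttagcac
The Mpo promoter holds 1 match to the PU.1 and ETS letters, the Lcn2 promoter 1 to C/EBP and the Cd48 promoter 1 to RUNX. Srxn1 holds 2 AP-1 matches and Erg 1 GATA match, while none of the 5 motifs is in the Nkx2-3 window, which says nothing about the factors themselves. Over all 12691 RefSeq promoters under a tested region, 2.25% held the PU.1 and ETS letters, 6.56% C/EBP, 9.71% RUNX, 3.48% AP-1 and 4.58% GATA. The 6 examples do not show how common motifs are at separating regions. Among other promoters of such regions, those of Cd34, Igsf6, Zdhhc1, Ptpn13, Obsl1 and Gata3 held none of the 5. Those of Meis1, Nkg7, Gp9 and Lyrm7 held 1 match each.

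No region passed the test between MPP3 and LT-HSC in carriers. With limma and Benjamini-Hochberg adjustment over 25058 regions, 0 were called at an adjusted p under 0.05 (0% of regions tested), and the smallest adjusted p was 0.249. At an unadjusted p under 0.05 there were 1691 regions, of which 985 (3.93% of all tested) were higher in MPP3 and 706 (2.82%) lower. All 3 MPP3 libraries lay above all 3 LT-HSC libraries in 1674 regions (6.68%) and below them in 1625 (6.48%), and these shares are the background against which counts of named groups are read. An exact permutation test of 3 libraries against 3 cannot give a two-sided p below 0.1. The median log2 difference, MPP3 minus LT-HSC, was -0.01 over all regions, with a median standard error of 0.36. Differences below are log2 differences of normalised signal plus a pseudocount of 4, with limma's moderated standard error, and give equal weight to the Dnmt3a and the Dnmt3a;Npm1 genotype. Since no carrier region was called, named regions are described by their values.

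The 6 libraries differed in quality. Tested regions held 38.0% of the signal of the LT-HSC Dnmt3a library, 31.0% and 30.4% of that of LT-HSC Dnmt3a;Npm1 A and B, 22.0% and 26.3% of that of MPP3 Dnmt3a A and B, and 35.5% of that of MPP3 Dnmt3a;Npm1. Reads in regions, read off the step between deposited values, were 16000000 to 18300000 in LT-HSC and 7340000 and 9990000 in MPP3 Dnmt3a, and could not be recovered for MPP3 Dnmt3a;Npm1. Correlations of log2 signal over regions ran from 0.60 to 0.87. The highest joined LT-HSC Dnmt3a to MPP3 Dnmt3a;Npm1, across cell types, and the 2 MPP3 Dnmt3a replicates correlated at 0.62. The MPP3 Dnmt3a libraries thus had the lowest share of signal in regions and the lowest recovered depth of the 6. The part of this in the differences was addressed only by a fit with that share as a covariate, which called 0 regions (1517 at an unadjusted p under 0.05, limma). Leaving out single libraries did change the number of calls: 29 without MPP3 Dnmt3a B (8 higher, 21 lower), 10 without LT-HSC Dnmt3a;Npm1 A (10 higher) and 7 without MPP3 Dnmt3a A (7 lower).

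Markers of the 2 cell types followed the sort labels in carriers. Of 12 genes listed as MPP3 markers, 11 had a tested region (Ms4a3 had none), and the median difference over the gene's regions was above 0 in 11 of the 11. The smallest of these medians were 0.04 at Irf8 and 0.15 at Cebpe. The list also holds Flt3 (0.26), a receptor gene of multipotent progenitors that is not specific to MPP3. Its value, counted among the 11, therefore does not bear on the MPP3 label. Of 12 LT-HSC markers, the median was below 0 in 10, with Hlf at 0.19 and Mllt3 at 0.06. In WT, the same counts were 10 of 11 above 0 and 11 of 12 below 0.

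Granule and effector genes of neutrophils had the clearest excess in MPP3. The list held 33 tested regions near 18 of its 25 genes, and 28 of the 33 were above 0, against 48.6% of all regions. All 3 MPP3 libraries exceeded all 3 LT-HSC libraries in 12 of the 33 (36.4%, background 6.68%), and the reverse occurred in 0. Neighbouring regions were counted separately and are not independent. Of the 12, 3 lay at Mpo beside 1 at Lpo, 2 at Prtn3 beside 1 at Elane, and 3 at Ncf1, with the rest at Igsf6 and Lcn2. Mpo and Lpo lie on chromosome 11 and Prtn3 and Elane on chromosome 10, where 7.99% and 11.7% of all tested regions were higher without overlap. The list's median difference was 0.57 beside -0.01 over all regions. Its median signal was 93.3, 119.6 and 126.0 in LT-HSC Dnmt3a B, Dnmt3a;Npm1 A and Dnmt3a;Npm1 B, and 179.4, 167.3 and 155.5 in MPP3 Dnmt3a A, Dnmt3a B and Dnmt3a;Npm1 B. The cell types did not overlap in this median, but they did in the list's summed signal (7058 to 9050 in LT-HSC, 7803 to 18530 in MPP3). The upper end comes from MPP3 Dnmt3a A, where 1 region near Ly6c2, a member of a family of similar genes whose reads may be hard to assign, stood at 11952 against 2198 to 4675 in the other carriers.

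Mpo, which encodes the peroxidase of azurophil granules, had 4 tested regions, all 4 positive and 3 of them without overlap. The largest of these (chr11:87803850-87810872, in the annotated gene body) had a signal of 289, 280 and 118 in LT-HSC, in the order Dnmt3a B, Dnmt3a;Npm1 A and Dnmt3a;Npm1 B, which is kept below. In MPP3 it had 1121, 505 and 438, in the order Dnmt3a A, Dnmt3a B and Dnmt3a;Npm1 B. Every MPP3 library was above every LT-HSC library, and the highest was MPP3 Dnmt3a A. The means were 688 ± 376 and 229 ± 96.5 (SD, n = 3 each) and the difference 1.31 ± 0.33 (limma, adjusted p = 0.498), beside 2.21 in WT and 0.88 in Npm1. At the Mpo promoter (chr11:87793148-87794349), over the sequence printed above, the difference was 1.81 ± 0.53, and 2.7 kb upstream (chr11:87789484-87791056) it was 1.53 ± 0.41.

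Lpo, the gene for lactoperoxidase, lies beside Mpo. Its region (chr11:87810937-87812429, in the gene) had 52.8, 64.3 and 41.7 in LT-HSC and 279, 187 and 163 in MPP3. The lowest MPP3 value was thus well above the highest LT-HSC value, and the difference was 1.81 ± 0.36 (adjusted p = 0.249). It was 2.04 in Dnmt3a, 1.58 in Dnmt3a;Npm1, 0.78 in WT and -0.04 in Npm1. Mpo and Lpo lie on chromosome 11, where the log2 share of signal outside tested regions was -0.55 in LT-HSC Dnmt3a;Npm1 B and 0.39 in MPP3 Dnmt3a B, both in the direction of these differences. After centring by chromosome the difference was 1.15 at Mpo and 1.65 at Lpo.

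The serine proteases of the same granules were less even. Prtn3, encoding proteinase 3, had 3 positive regions of 3. Its region of smallest p (chr10:79876771-79878497) had 196, 261 and 198 in LT-HSC and 346, 389 and 341 in MPP3, a difference of 0.74 ± 0.25. For Elane, encoding neutrophil elastase, the single region (chr10:79884325-79885400) had 89.4, 105.5 and 15.03 in LT-HSC and 154, 271 and 121 in MPP3, a difference of 1.30 ± 0.52. Neither gene's region overlapped between cell types, although the LT-HSC Dnmt3a;Npm1 B value of Elane was far below the other 2. Both genes lie on chromosome 10, where MPP3 Dnmt3a B had raised signal throughout. The log2 share of signal outside tested regions was -0.25 there in LT-HSC Dnmt3a;Npm1 A, also in the direction of these differences. After centring by chromosome the differences were 0.53 at Prtn3 and 1.10 at Elane.

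Ctsg, the gene for cathepsin G, overlapped. Its region (chr14:56105001-56106120) had 61.2, 46.2 and 71.8 in LT-HSC and 175, 62.0 and 90.4 in MPP3. MPP3 Dnmt3a B lay inside the LT-HSC range. The difference of 0.68 ± 0.62 stood beside 3.46 in WT and 0.93 in Npm1, but carriers minus non-carriers, -1.52, did not pass the test (limma, adjusted p = 0.462). Among the other members without overlap were 3 regions of Ncf1, encoding a subunit of the phagocyte NADPH oxidase (0.41 to 0.79), Igsf6 (0.91) and Lcn2, encoding the iron-siderophore binder lipocalin 2 (0.66 ± 0.67). Lcn2 and Igsf6 separated the cell types mainly in Dnmt3a, at 1.25 and 1.68, beside 0.07 and 0.15 in Dnmt3a;Npm1.

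**Figure D1:**
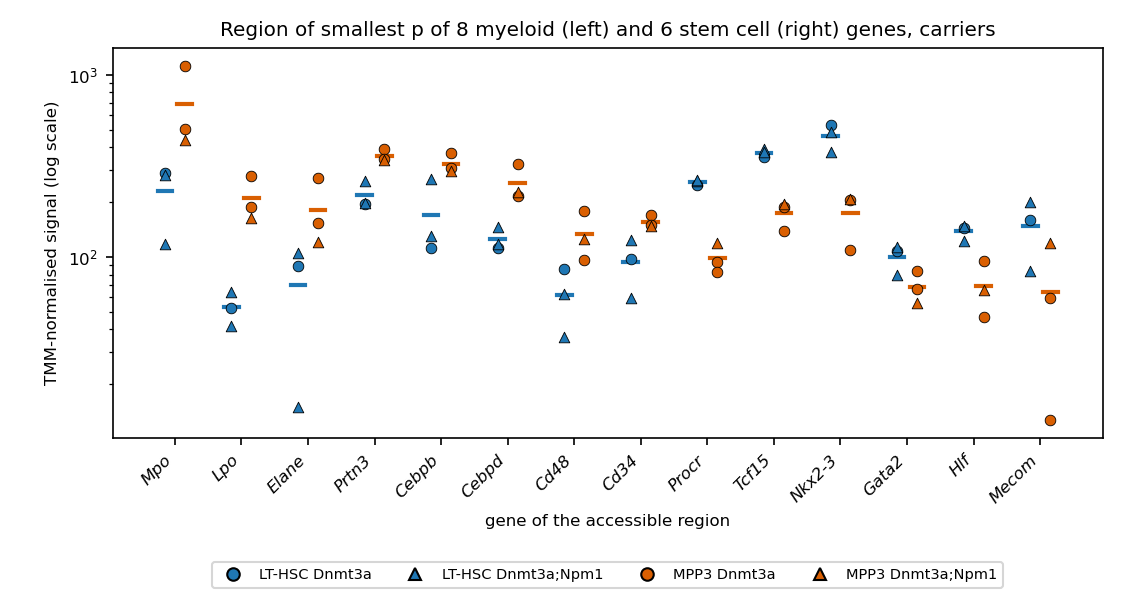
TMM-normalised signal (log axis) of the region of smallest p of 8 myeloid and 6 stem cell genes in the 6 carrier libraries; points are libraries (circles Dnmt3a, triangles Dnmt3a;Npm1), short lines the mean of 3 libraries of a cell type. Mpo spans 118 to 289 in LT-HSC and 438 to 1121 in MPP3, Procr 248 to 264 in LT-HSC and 82.5 to 119 in MPP3, and Mecom and Gata2 overlap.

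Transcription factor and cytokine receptor genes of the myeloid lineage were shifted less. Of 84 regions near 23 genes, 59 were positive, 11 lay higher in all 3 MPP3 libraries (13.1%, background 6.68%) and 1 lower (1.19%, background 6.48%). The median difference was 0.14. Cebpb, encoding a C/EBP factor of granulocyte and macrophage genes, had a region 68917 bp from the gene (chr2:167759349-167761434) with 112, 131 and 266 in LT-HSC and 308, 372 and 297 in MPP3. LT-HSC Dnmt3a;Npm1 B reached close to the lowest MPP3 value there, and the difference was 1.11 ± 0.31. A second Cebpb region, at chr2:167753695-167755620, differed by 0.76 ± 0.27 without overlap. Cebpd, a related factor, had 2 regions, both without overlap. The first (chr16:15889456-15891104) had 112, 118 and 146 in LT-HSC against 216, 323 and 227 in MPP3, a difference of 0.99 ± 0.34.

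Other members of the list were nearer the spread. Spi1, which encodes PU.1, had 4 of 5 regions above 0 and 1 without overlap (0.81 ± 0.46). Cebpa, encoding the C/EBP factor needed for granulocyte commitment, had 3 of 3 above 0 and 0 without overlap, its region of smallest p differing by 0.43 ± 0.40. Gfi1, a repressor of monocyte genes in granulocyte precursors, had 1 region lower without overlap and 1 at 0.80 ± 0.40 with overlap. The G-CSF receptor gene Csf3r (0.53 ± 0.38), the M-CSF receptor gene Csf1r (0.87 ± 0.38) and Flt3, encoding a receptor of multipotent progenitors (1.00 ± 0.55), all overlapped at their region of smallest p.

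Cd48 and Cd34 encode surface proteins whose presence helps to separate progenitors from LT-HSC in sorting, so a difference at them is close to the gate. At the Cd48 promoter (chr1:171681555-171682479), whose sequence is printed above, the values were 85.6, 36.2 and 62.6 in LT-HSC and 179, 95.9 and 126 in MPP3. At the Cd34 promoter (chr1:194938560-194939392) they were 97.9, 125 and 59.3 against 149, 170 and 148. The groups did not overlap at either gene. The differences were 0.96 ± 0.47 and 0.71 ± 0.41, beside 1.61 and 0.65 in WT.

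Stem cell genes were lower in MPP3. The list held 103 regions near 29 of its 34 genes, of which 29 were positive and the median difference was -0.30. In 21 (20.4%, background 6.48%) all 3 MPP3 libraries lay below all 3 LT-HSC libraries, and in 4 (3.88%, background 6.68%) above them. The list's median signal was 175.8, 176.8 and 181.1 in LT-HSC and 154.0, 128.7 and 148.6 in MPP3, in the order given for the granule genes, so that every MPP3 library was below every LT-HSC library.

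Procr encodes the endothelial protein C receptor, a surface marker of LT-HSC. A region 7359 bp from the gene (chr2:155742742-155743766) had 248, 264 and 261 in LT-HSC and 82.5, 93.6 and 119 in MPP3. The 3 LT-HSC values lay close together and far above the MPP3 values. The means were 258 ± 8.82 and 98.4 ± 18.7 (SD, n = 3 each), a difference of -1.29 ± 0.33 (adjusted p = 0.512), beside -0.43 in WT and -0.32 in Npm1. A neighbouring region (chr2:155742074-155742697) differed by -1.71 ± 0.55. Of the 3 tested Procr regions, 1 was above 0.

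Tcf15, encoding a factor linked to stem cell quiescence, had 2 of 3 regions without overlap. At chr2:152143170-152145088 the values were 354, 375 and 391 in LT-HSC and 187, 138 and 195 in MPP3. The difference of -1.04 ± 0.29 was near that of WT (-0.80) and Npm1 (-0.96).

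Other stem cell genes had regions without overlap in which MPP3 was lower: Esam, encoding an adhesion molecule (-1.14 ± 0.33), Eya2 (-1.04 ± 0.33), Gata3 (3 of 6 regions), Cd81 (2 of 6) and Erg, encoding an ETS factor needed for stem cell maintenance, whose promoter is printed above (-0.84 ± 0.34). Hlf, Erg, Fgd5 and Lmo2 did not move one way. Hlf, encoding a factor that marks stem cells, had 2 regions lower and 2 higher without overlap of 6 tested, and Erg 2 lower and 1 higher of 10. Fgd5, a listed LT-HSC marker, had 1 of 4 regions above 0, which was higher without overlap (0.79), and 0 lower without overlap. Lmo2 had 5 of 8 regions above 0 and 1 lower without overlap. Mecom, encoding the stem cell factor Evi1, had 159, 201 and 83.5 in LT-HSC and 12.7, 59.7 and 120 in MPP3 at its promoter (chr3:30509946-30511137), which overlapped, while a region 4776 bp from the gene was lower without overlap (-0.69 ± 0.36). Slamf1, encoding the sorting marker CD150, overlapped too (-0.45 ± 0.46).

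Of the genes named, Nkx2-3 had the smallest p among regions lower in MPP3. It encodes a homeodomain factor, and 7 of its 8 regions were below 0, 3 of them without overlap. Its region 10512 bp from the gene (chr19:43598869-43601813) had 530, 486 and 375 in LT-HSC and 205, 109 and 209 in MPP3. The highest MPP3 value lay well below the lowest LT-HSC value. The difference was -1.41 ± 0.29 (adjusted p = 0.249), -1.60 in WT and -1.71 in Npm1. In the non-carriers this region was called (mean of both genotypes -1.66, limma with Benjamini-Hochberg adjustment, adjusted p = 0.0154). At the Nkx2-3 promoter printed above, the region chr19:43611946-43613098 differed by -0.85 ± 0.33.

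Zfpm1 encodes FOG1, the GATA factor cofactor of erythroid and megakaryocyte cells. Of its 14 regions 13 were below 0 and 5 were lower without overlap. At chr8:122308957-122310156, in the gene, the signal was 217, 242 and 314 in LT-HSC and 87.3, 26.9 and 75.6 in MPP3. The cell types were far apart in both genotypes (-2.06 in Dnmt3a, -1.81 in Dnmt3a;Npm1), and the difference was -1.94 ± 0.42 (adjusted p = 0.35), with -1.70 in WT. Over the erythroid and megakaryocyte list, 10 of 63 regions were lower without overlap (15.9%, background 6.48%) and 3 higher (4.76%, background 6.68%). The list's median was -0.10. Of those 10, 5 were the Zfpm1 regions, and the others lay at Gp1ba, Gp9, Epor, Ank1 and Car2. Zfpm1 and Ank1 lie on chromosome 8 and Epor on chromosome 9. On these chromosomes 10.3% and 11.3% of all tested regions were lower without overlap, and 5.99% and 5.82% after centring by chromosome. The list's share is thus partly set beside a background lower than that of these chromosomes. After centring, the difference at the first Zfpm1 region was -1.84. Gata2, encoding a GATA factor of stem and progenitor cells, had 0 of 6 regions above 0 and 0 without overlap.

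The Hox, Meis and Nkx list had 6 of 50 regions lower without overlap (12.0%, background 6.48%), which included 3 Nkx2-3 regions, and 2 higher (4.0%, background 6.68%). Of the Hox genes in the list, Hoxa5 had 1 region lower without overlap (-0.39) and Hoxb3 1 higher (0.24). The Meis1 promoter (chr11:19018286-19021228), at a gene that drives stem cell and leukaemia programmes, was higher in all 3 MPP3 libraries: 515, 544 and 392 in LT-HSC and 695, 806 and 585 in MPP3. That difference was small, at 0.44 ± 0.22, and was 0.28 after centring by chromosome. Hoxa9, a leukaemia-associated homeobox gene, differed by 0.18 ± 0.24 with overlap.

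**Figure D2:**
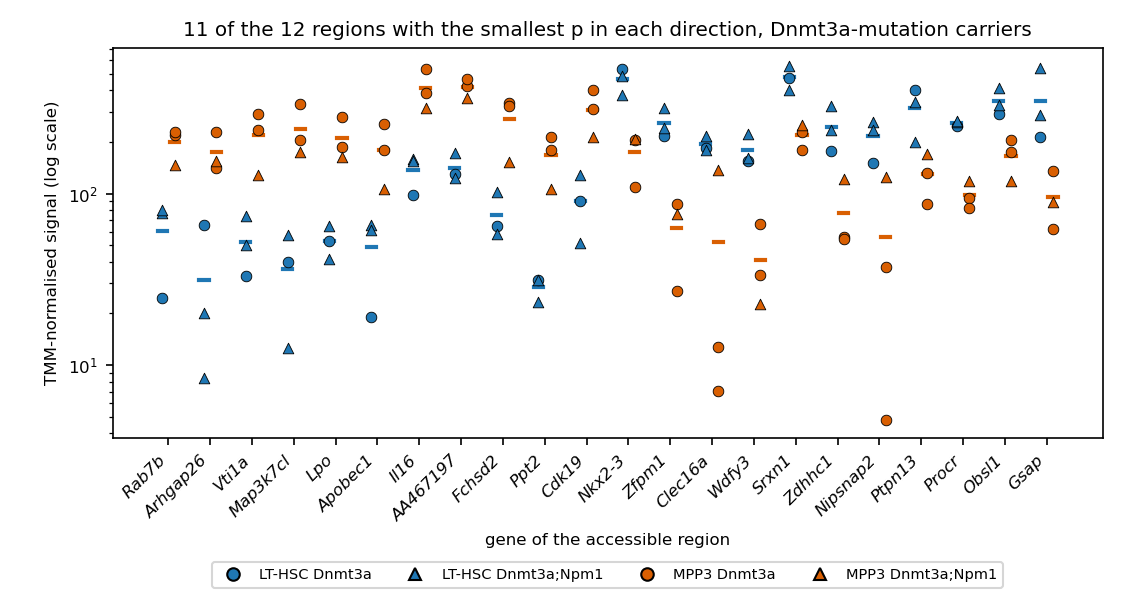
TMM-normalised signal (log axis) of 11 regions higher and 11 lower in carrier MPP3, among the 12 with the smallest p in each direction without overlap, 1 per gene; points are libraries (circles Dnmt3a, triangles Dnmt3a;Npm1) and short lines means of 3 libraries. At Rab7b the MPP3 libraries lie at 147 to 229 and the LT-HSC libraries at 24.5 to 80.4, and at Clec16a the MPP3 libraries spread from 7.02 to 137.

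The 11 regions described here on each side, of the 12 with smallest p, were chosen for their difference, so their values are a description and none passed the adjusted test (adjusted p = 0.249 to 0.35 for those higher and 0.249 to 0.512 for those lower). Those higher in MPP3 lay at Rab7b, Arhgap26, Vti1a, Map3k7cl, Lpo, Apobec1, Il16, AA467197, Fchsd2, Ppt2 and Cdk19, with differences of 1.51 to 2.54. None of the 11 was at a promoter. Rab7b, encoding a small GTPase of late endosomes, had 24.5, 80.4 and 76.8 in LT-HSC and 229, 220 and 147 in MPP3 (chr1:131690289-131691874, in the gene). The gap was 3.003 in Dnmt3a and 0.87 in Dnmt3a;Npm1, since the single LT-HSC Dnmt3a library was the lowest. Il16, encoding a chemoattractant cytokine, had 97.9, 155 and 159 against 387, 535 and 315 (chr7:83658624-83661191, in the gene). A region 29348 bp from Map3k7cl (chr16:87624684-87626182) had 39.8, 57.3 and 12.5 against 205, 333 and 175. This was the region whose difference was most alike in both carrier genotypes among these 11, 2.60 and 2.49, and WT gave 2.44.

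Apobec1, encoding a cytidine deaminase that edits RNA, differed mainly in Dnmt3a (3.24, beside 0.71 in Dnmt3a;Npm1). Its LT-HSC values were 19.1, 61.3 and 65.9 and its MPP3 values 254, 180 and 107 (chr6:122570619-122571910). The Arhgap26 region lies on chromosome 18, where MPP3 Dnmt3a B was raised throughout, and its difference of 2.30 ± 0.43 was 2.07 after centring by chromosome.

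Those lower in MPP3 lay at Nkx2-3, Zfpm1, Clec16a, Wdfy3, Srxn1, Zdhhc1, Nipsnap2, Ptpn13, Procr, Obsl1 and Gsap, with differences of -2.24 to -1.05, and 4 of the 11 were at promoters. Srxn1, encoding sulfiredoxin, which repairs oxidised peroxiredoxins, had 470, 401 and 556 in LT-HSC and 179, 227 and 251 in MPP3 over the promoter printed above (chr2:152104617-152106095). MPP3 was lower in both carrier genotypes, -1.20 and -0.90, and the WT difference was -0.36. Zdhhc1, encoding a member of the palmitoyltransferase family, had 178, 234 and 323 against 54.0, 56.1 and 122 at its promoter (chr8:105496426-105497369). Its difference was -1.39 ± 0.34 in carriers, -0.13 in WT and -0.11 in Npm1, but carriers minus non-carriers did not pass the test (-1.27, adjusted p = 0.33). Zdhhc1 lies on chromosome 8, and its carrier difference was -1.29 after centring by chromosome.

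Clec16a and Nipsnap2 differed mainly in Dnmt3a. At the Clec16a region (chr16:10689671-10690447) LT-HSC had 185, 179 and 215, and MPP3 had 12.7, 7.02 and 137. Both MPP3 Dnmt3a libraries were far below every other carrier and the MPP3 Dnmt3a;Npm1 library was close to LT-HSC, giving -3.80 in Dnmt3a and -0.50 in Dnmt3a;Npm1. Nipsnap2 (chr5:129729733-129730685) had 151, 236 and 260 against 4.76, 37.4 and 124, and its differences were -3.02 and -0.97. The lowest MPP3 Dnmt3a values at both genes rest on few reads. In MPP3 Dnmt3a A and B each read adds 2.618 and 2.1075 to the deposited signal, with scaling factors of 0.63 and 0.855. The size of the Dnmt3a differences at these regions is therefore uncertain.

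In carriers the balance of directions differed between kinds of region. Of 9386 promoter regions, 3.42% were higher in all 3 MPP3 libraries and 7.43% lower. Of 10285 regions in genes, 8.19% were higher and 5.83% lower, and of 5387 intergenic regions 9.49% were higher and 6.09% lower. The median difference in carriers was -0.08 at promoters and 0.07 between genes. In WT these medians were 0.007 and 0.009, and in all non-carriers they were 0.185 and -0.023, the other way round. Promoter regions had a higher median signal than intergenic ones (335 and 145), the MPP3 Dnmt3a libraries had the lowest share of signal in regions, and the part of this in the balance was not tested. Among promoters under regions higher in MPP3 (412), 14.8% held the RUNX letters, 8.98% C/EBP, 6.31% GATA, 3.88% PU.1 and ETS, and 3.16% AP-1. Among those under regions lower in MPP3 (975), the shares were 8.31%, 7.28%, 4.72%, 2.97% and 3.28%. Beside all promoters under a tested region, the first set was thus higher for RUNX, C/EBP, GATA and PU.1 and ETS, and lower for AP-1. The second set was lower for RUNX and AP-1 and higher for the others. Over all 32817 RefSeq promoters, tested or not, 14.0% held the RUNX letters. The median GC content was 60.4% in the first set, and 62.0% both in the second and in all promoters under a tested region. These shares were not tested.

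Cell cycle and other response genes were counted in the same way. Cell cycle genes had 3 of 85 regions higher and 3 lower without overlap (3.53% each, background 6.68% and 6.48%) and a median of 0.03. Mcm5, encoding a subunit of the replicative helicase, had 45.9, 28.1 and 41.7 in LT-HSC and 79.4, 121 and 149 in MPP3 (chr8:75119208-75120238, in the gene), a difference of 1.52 ± 0.47. Ccnd1, encoding cyclin D1, had a region 84962 bp away that was lower in MPP3 (-1.19 ± 0.39). Early response and AP-1 genes had 7 of 101 higher and 7 lower (6.93% each) beside the same background. Interferon response genes had 1 of 43 higher (2.33%) and 5 lower (11.6%), beside the same background. DNA methylation and chromatin genes had 5 of 46 higher (10.9%) and 1 lower (2.17%). In both lists these are few regions, and the departure of their shares from the background was not tested. Dot1l and Dnmt3l, among the 5 higher, lie on chromosome 10, where 11.7% of all tested regions were higher without overlap. Their differences of 0.56 and 1.09 were 0.35 and 0.88 after centring by chromosome.

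Within the last list, Tet2, encoding an enzyme that oxidises methylated cytosine, had 4 of 5 regions above 0 and 2 higher without overlap, the first (chr3:133582682-133583918) with 72.6, 44.2 and 86.8 in LT-HSC and 121, 198 and 109 in MPP3. A region inside Dnmt3a (chr12:3855315-3857023) was the single one of its list lower without overlap: 499, 497 and 486 against 421, 327 and 390. The difference was -0.38 ± 0.25. ATAC signal at this gene does not check the mutation, which changes the coding sequence. The Npm1 gene's single region overlapped (0.12 ± 0.28).

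Markers of other cells that the gates could hold were measured too. Lymphoid genes had a median of 0.22, with 5 of 57 regions higher (8.77%, background 6.68%) and 6 lower (10.5%, background 6.48%) without overlap. Their summed signal was 9485 to 10320 in LT-HSC and 10390 to 11090 in MPP3, which did not overlap. Gata3, on this list and the stem cell list, gave 3 of the 6 lower regions. Nkg7, encoding a cytotoxic granule protein, was higher in MPP3 at its promoter (0.97 ± 0.31), while Eomes (-0.88 ± 0.29) and Lck (-0.86 ± 0.33), a T cell and NK cell factor and a T cell kinase, were lower. Mast cell, basophil and eosinophil genes had 0 of 9 regions without overlap, and 11 of the 15 genes had no tested region. Macrophage and dendritic cell genes had 1 of 28 higher (3.57%) and 2 lower (7.14%), and niche and endothelial genes 2 of 28 higher and 2 lower (7.14% each). Their summed signals overlapped between cell types, at 4256 to 4483 and 4122 to 4951 for the former and 4922 to 5441 and 4754 to 6081 for the latter. The part of other cells in the differences was not tested.

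**Figure D3:**
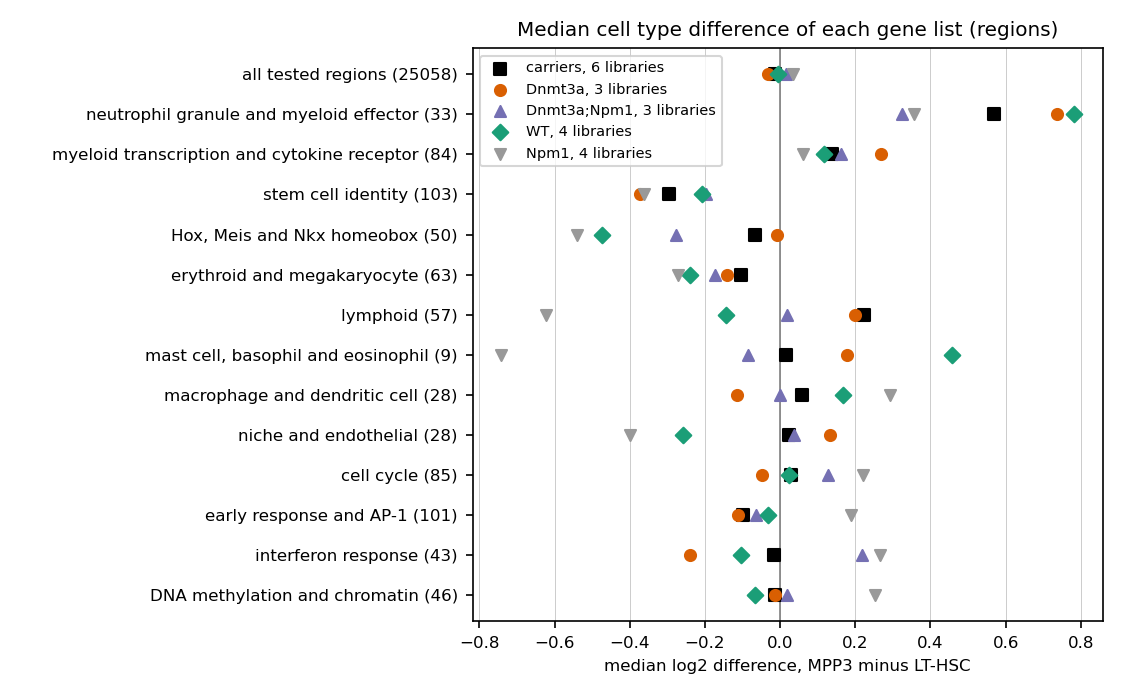
Median log2 difference, MPP3 minus LT-HSC, over the tested regions of each gene list (number in brackets), in all carriers, in each carrier genotype and in WT and Npm1. The granule list lies at 0.57 in carriers, 0.74 in Dnmt3a, 0.32 in Dnmt3a;Npm1 and 0.78 in WT, and the stem cell list below 0 in all 4 genotypes.

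The 2 carrier genotypes were then compared with each other. The difference between cell types in Dnmt3a;Npm1 minus that in Dnmt3a was called in 0 of 25058 regions (0%, limma with Benjamini-Hochberg adjustment, smallest adjusted p = 0.296), with 1160 at an unadjusted p under 0.05. Each of the 2 differences rests on a lone library on 1 side, whose spread was taken from the other groups. Over regions, the 2 differences, which share no library, had a Pearson r of 0.11 and the same sign in 52.0%. These are values over regions, which are not independent replicates.

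In the lists, both carrier genotypes had the same sign for granule genes (0.74 in Dnmt3a and 0.32 in Dnmt3a;Npm1) and stem cell genes (-0.37 and -0.20). The 2 regions of smallest p in each direction lay at Cdc42bpa, Pparg, Camk1d and Ptprn. Pparg, encoding a nuclear receptor of fat and macrophage genes, had 232, 197 and 169 in LT-HSC and 15.9, 31.6 and 183 in MPP3 (chr6:115480015-115481258). MPP3 Dnmt3a;Npm1 thus lay within the LT-HSC range and both MPP3 Dnmt3a libraries far below it. The 15.9 of MPP3 Dnmt3a A rests on few reads. Camk1d, encoding a calcium-dependent kinase, had 432, 712 and 699 against 1732, 1215 and 360 (chr2:5379039-5379848), so that MPP3 Dnmt3a;Npm1 was the lowest of the 6 and both MPP3 Dnmt3a libraries the highest. Irf8, encoding a factor of monocyte and dendritic cell fate, had a region 49488 bp from the gene that was 0.92 in Dnmt3a and -1.47 in Dnmt3a;Npm1 (difference -2.39, adjusted p = 0.974). Its values were 89.4, 206 and 388 in LT-HSC and 146, 205 and 99.9 in MPP3.

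**Figure D4:**
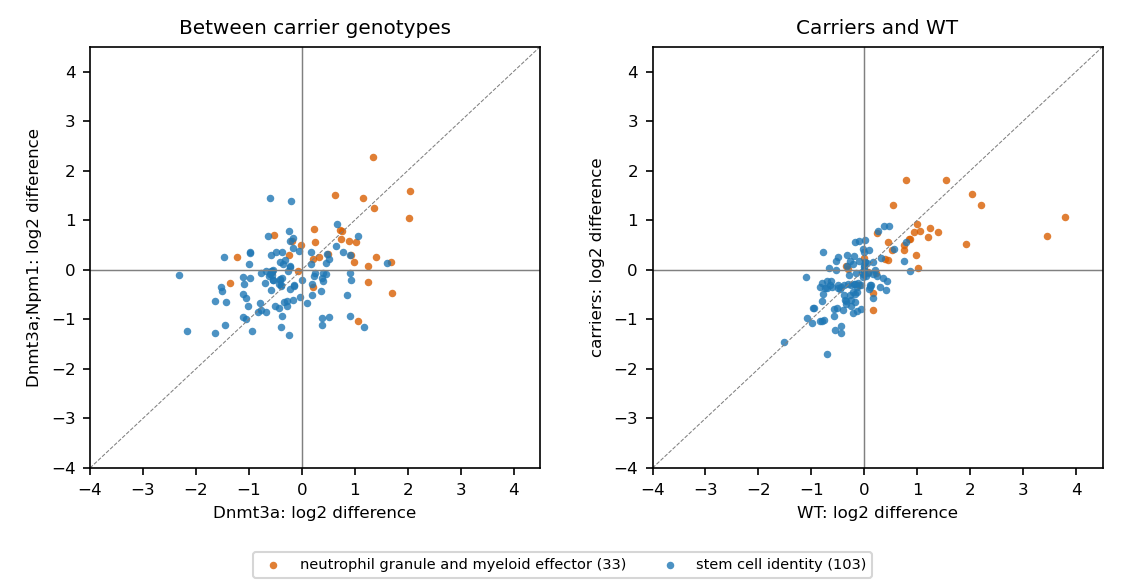
Log2 differences, MPP3 minus LT-HSC, of the regions of the granule list (33) and the stem cell list (103): Dnmt3a;Npm1 against Dnmt3a (left) and carriers against WT (right), with the line of equal differences dashed. Most granule regions lie above 0 on all axes, 25 of 33 in Dnmt3a, 26 in Dnmt3a;Npm1, 28 in carriers and 29 in WT.

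Whether the difference between cell types was itself changed by the Dnmt3a mutation was tested as carriers minus non-carriers. Here too 0 of 25058 regions were called (0%, limma with Benjamini-Hochberg adjustment, smallest adjusted p = 0.319), with 2930 at an unadjusted p under 0.05 (1439 higher, 5.74%, and 1491 lower, 5.95%). With WT alone as the non-carriers, 0 were called and 589 had an unadjusted p under 0.05. In the non-carriers alone, 372 regions were called, 152 higher in MPP3 (0.607% of all) and 220 lower (0.878%). Of those 152, 82 (53.9%) were above 0 in carriers, beside 48.6% of all regions, and 34 (22.4%, background 6.68%) were higher there without overlap. Of the 220, 136 (61.8%) were below 0 in carriers and 31 (14.1%, background 6.48%) were lower without overlap. Calls in the non-carriers came from 8 libraries against 6, so the 2 numbers of calls are not a measure of a smaller difference in carriers. WT alone had 0 calls (1429 at an unadjusted p under 0.05) and Npm1 alone 2281.

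WT resembled the carriers more than Npm1 did. Over all regions the carrier difference had a Pearson r of 0.34 and a Spearman rho of 0.26 with the WT difference, and a Pearson r of -0.003 with the Npm1 difference, and no library is shared between them. Of the 1674 regions higher in all carrier MPP3 libraries, 1171 (70.0%) were also above 0 in WT, beside 49.3% of all regions. Of the 1625 lower, 1112 were below 0 in WT and 31.6% above 0. In Npm1, 914 of the 1674 (54.6%) were above 0, beside 51.6% of all regions. Of the 1625, 811 were below 0 in Npm1 and 50.1% above 0. In LT-HSC Npm1, 15.4% and 19.1% of the signal fell in tested regions, less than in any other library, and the part of this in the low correlation was not tested.

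Among the lists, homeobox and lymphoid genes had shares above the background in this comparison at the unadjusted level. Of the 50 homeobox regions, 10 had an unadjusted p under 0.05 in the direction of carriers above non-carriers and 0 in the other (background 5.74% and 5.95%), and of the 57 lymphoid regions 14 and 2. With WT alone as the non-carriers these counts were 3 and 0 for homeobox and 5 and 1 for lymphoid regions (background 1.23% and 1.12%). The homeobox median was -0.07 in carriers, -0.48 in WT and -0.54 in Npm1, and the lymphoid median 0.22, -0.14 and -0.62. Hoxb8, a gene of the HoxB cluster, differed by 0.44 in carriers, -0.74 in WT and -2.19 in Npm1 at chr11:96282140-96284038. Tcf7, encoding the T cell factor TCF1, had 5 such regions, the first (chr11:52268117-52269340, in the gene) at 1.36 in carriers, -0.69 in WT and -1.53 in Npm1. Pax5, the B cell commitment gene, had 2, one of them (chr4:44532003-44534279) at 0.91, -1.40 and -2.42. None passed the adjusted test (adjusted p = 0.321 for these 3 regions).

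At that Pax5 region the 6 carrier values were 32.1, 141 and 62.6 in LT-HSC and 121, 101 and 106 in MPP3. WT had 53.1 and 348 in LT-HSC and 112 and 21.0 in MPP3, and Npm1 had 216 and 319 against 48.4 and 43.6, each in the order A and B. The 2 WT LT-HSC libraries were thus farther apart than the carrier libraries of either cell type. LT-HSC Npm1 and MPP3 Dnmt3a were the 4 libraries with least of their signal in tested regions. With that share as a covariate, 625 regions had an unadjusted p under 0.05 in place of 2930, and the smallest adjusted p was 1. The homeobox counts were then 2 and 0 and the lymphoid counts 3 and 1 (background 1.24% and 1.26%).

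Nr4a1, an early response gene for a nuclear receptor, had the smallest p of this test among the listed genes. Its region chr15:101257768-101259272 had 61.9, 145 and 83.5 in carrier LT-HSC and 221, 225 and 143 in MPP3, a difference of 1.07 ± 0.38, beside -0.40 in WT and -1.51 in Npm1 (carriers minus non-carriers 2.03 ± 0.49, adjusted p = 0.321). The carrier values overlapped, since LT-HSC Dnmt3a;Npm1 A stood just above MPP3 Dnmt3a;Npm1 B. Across all regions the smallest p lay at Tmem267 and Coro1b (carriers higher, 2.75 and 2.53) and at Lyrm7 and Lmntd1 (carriers lower, -1.66 and -1.54), each with an adjusted p of 0.319.

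**Figure D5:**
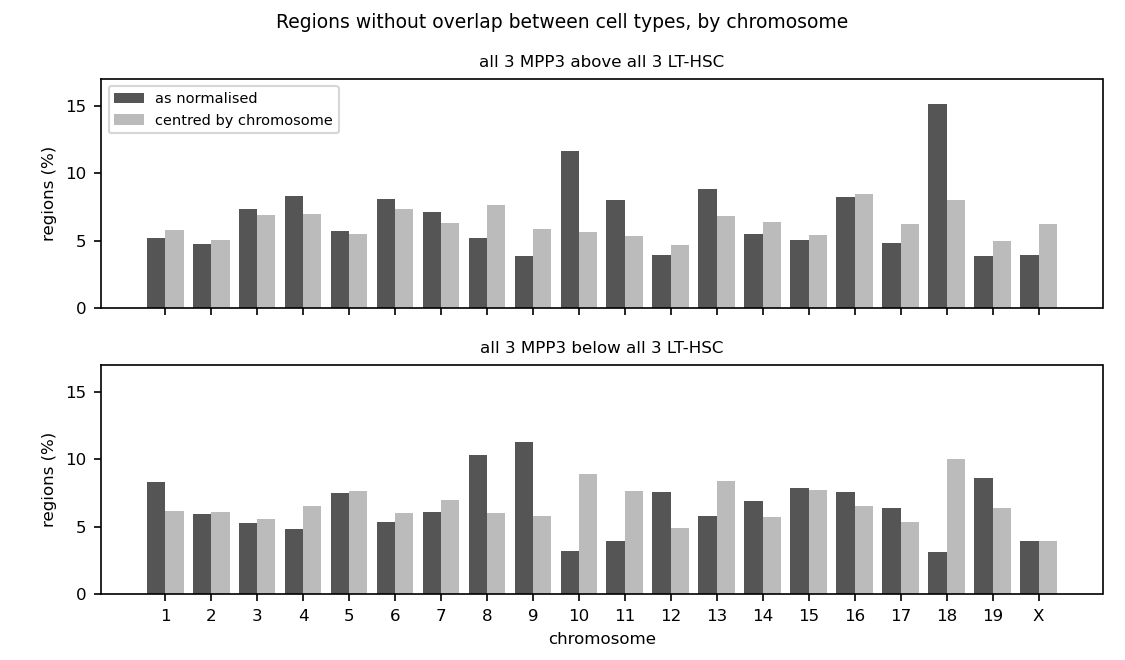
Share of tested regions of each chromosome in which all 3 carrier MPP3 libraries lie above (top) or below (bottom) all 3 carrier LT-HSC libraries, in percent, before and after each library was centred on its chromosome medians. Chromosome 18 has the largest share above, 15.1%, and chromosome 9 the largest below, 11.3%, and after centring they are 8.0% and 5.82%.

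Some libraries carried shifts of whole chromosomes, which move with these counts. Signal outside tested regions was raised on chromosome 18 by 0.78 (log2 of its share) in MPP3 Dnmt3a B, and in LT-HSC Dnmt3a;Npm1 B it was raised by 0.51 on chromosome 1 and differed by -0.56 on chromosome 18. Regions higher without overlap made up 15.1% of chromosome 18 and 11.7% of chromosome 10, and regions lower 11.3% of chromosome 9 and 10.3% of chromosome 8. After each library was centred by chromosome, an alternative chosen after these shifts were seen, the shares were 8.0%, 5.64%, 5.82% and 5.99%. The share of regions lower went the other way on 2 of them, from 3.14% to 10.0% on chromosome 18 and from 3.22% to 8.94% on chromosome 10, so centring did not even out the chromosomes. The granule list then had 12 regions higher without overlap and the stem cell list 23 lower, beside 12 and 21 before. What set the shifts was not tested.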

How the data were processed

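ATAC-seq was deposited as 1 table of 705361 regions by 14 libraries. Its values are a signal scaled by the authors, whole numbers that in 8 libraries are multiples of a fixed step per read, rounded, and so not raw counts. DiffBind 2.12.0, edgeR 3.26.4, HOMER 4.10, R 3.6.0 and build mm10 are named in the submitters' processing notes, with no role given. The aligner is not given in the sources used here.

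From the deposited signal, regions on chromosomes 1 to 19 and X with a row mean of at least 100 were kept (25058, 3.55% of all, median width 1365 bp). Libraries were scaled by TMM factors (trimmed mean of M values) over these regions, leaving out 30% of M and 5% of A values at each end. The log2(signal + 4) values were then fitted with limma 3.58.1 in R 4.3.3, with 8 groups of cell type and genotype. The fit had a robust trended prior and Benjamini-Hochberg adjustment at 0.05 over all regions. The pseudocount understates changes of low regions. Carriers were the mean of the Dnmt3a and Dnmt3a;Npm1 differences, non-carriers that of WT and Npm1. The 2 groups with a single library take their spread from the others. The fit was tested on simulated data.

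Regions were assigned to the nearest gene within 100000 bp, with the RefSeq GRCm38.p6 table. Of 321 genes in 13 lists, 244 had a tested region. Named genes were the 12 of smallest p in each direction without overlap, up to 3 of each list by smallest p, a set of 26 stem cell and myeloid genes, and, per direction, the 2 with smallest p for each difference between comparisons. Esam, Eya2, Erg, Fgd5, Lmo2, Gata3, Cd81, Lcn2, Igsf6, Ncf1, Tcf7, Pax5, Hoxa5, Hoxb3, Hoxb8, Gp1ba, Gp9, Epor, Ank1, Car2, Mllt3 and Ly6c2 are named outside this rule, after their values were seen. Some items under this rule are not reported here. The members and lists were chosen with earlier results of these data known.

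Alternatives were other scalings, pseudocounts, filters, prior and libraries in the fit, a replicate block, a covariate, and each library left out in turn. Centring by chromosome, array weights and WT alone as non-carriers were added after seeing the data. Depth is known only where reads could be recovered from the step, so no counting intervals are given.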

Additional observations from a re-analysis of the deposited data

How the results depend on the processing

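In limma fits with Benjamini-Hochberg adjustment, the carrier comparison had 0 calls under every alternative but these. Scaling to the library total gave 4 calls, with the median of all regions at -0.24, and leaving out 1 library gave 0 to 29. The calls came without MPP3 Dnmt3a B (29), LT-HSC Dnmt3a;Npm1 A (10) and MPP3 Dnmt3a A (7). Carriers minus non-carriers gave 4 calls with the library total, 1 with cyclic loess and 0 to 4 with 1 library left out (4 without MPP3 Dnmt3a B, 1 without MPP3 WT A). Dnmt3a;Npm1 minus Dnmt3a gave 1 with the library total, 2 with the 6 carriers alone in 4 groups and 0 to 13 with 1 library left out (13 without MPP3 Dnmt3a B). These last 2 comparisons have no value without LT-HSC Dnmt3a B or MPP3 Dnmt3a;Npm1 B, which are lone libraries. Without the first, the carrier comparison is the Dnmt3a;Npm1 difference alone, and without the second the Dnmt3a difference alone. The granule count of 12 was 7 with the library total (background 2.06%) and 7 with no filter (background 5.02%). It was 5 with a row mean of at least 200, where 9 of the 33 regions remained. With 1 carrier library left out it was 12 to 16, beside backgrounds of 10.9% to 14.4% in place of 6.68%. Without MPP3 Dnmt3a;Npm1 B, for example, it was 14 beside 14.4%. The stem cell count of 21 was 9 with a row mean of at least 200, where 36 of the 103 regions remained, 32 with no filter (background 5.42%) and 24 to 36 with 1 carrier library left out (36 without LT-HSC Dnmt3a;Npm1 B, background 11.3%, and 32 without MPP3 Dnmt3a;Npm1 B, background 14.1%). Fewer libraries overlap less, and a higher filter leaves fewer regions, by construction. The cause of the other changes was not tested.

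The letters A and B did not pair the libraries: over 15 pairs of groups the correlation of deviations ran from -0.247 to 0.415 and was over 0.1 in 1. With the replicate block, the 3 comparisons had 0 calls each.

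Of the named regions, 24 values changed sign. With the library total, Hoxa9 was -0.046 and Npm1 -0.112. With no filter, Mitf was -0.052, Hdc -0.114, Cebpe -0.052, Hoxa9 -0.193 and Npm1 -0.259. Ptprn was 0.035 with cyclic loess, 0.024 with a row mean of at least 200 and 0.009 when centred by chromosome, where Npm1 was -0.037. The values without LT-HSC Dnmt3a B are those of Dnmt3a;Npm1 alone, and the values without MPP3 Dnmt3a;Npm1 B those of Dnmt3a alone. Cdc42bpa, Pparg, Camk1d and Ptprn were chosen because these genotypes differed there, so their changes between these 2 settings follow from that choice. Without LT-HSC Dnmt3a B, Tmem267 was -0.041, Coro1b -0.24, Cdc42bpa 1.142, Pparg 0.002, Lmntd1 0.159 and Camk1d -0.964, and of those already of that sign Irf8 was -1.465, Hoxa9 0.396 and Ptprn -1.429. Without LT-HSC Dnmt3a;Npm1 B, Npm1 was -0.072 and Ptprn 0.141, and without MPP3 Dnmt3a A Ptprn was 0.148. Without MPP3 Dnmt3a;Npm1 B, Irf8 was 0.925, Hoxa9 -0.021, Npm1 -0.064 and Ptprn 1.362, and with their sign kept Tmem267 was 1.603, Coro1b 2.526, Cdc42bpa -1.999, Pparg -3.146, Lmntd1 -1.502 and Camk1d 1.743. Npm1 reached 0.31 without LT-HSC Dnmt3a;Npm1 A. All but Pparg and Coro1b differed by less than 1 before. Another 2292 values of named regions kept direction and side of the threshold, and 13 passed it, among them Map3k7cl and Zfpm1 with the library total, Rab7b, Vti1a, Lpo, Apobec1, Nipsnap2 and Mpo without MPP3 Dnmt3a B, Arhgap26 and Map3k7cl without LT-HSC Dnmt3a;Npm1 A, and Nkx2-3 and Zfpm1 without MPP3 Dnmt3a A.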
